A study of Brassica oleracea var. italica with 18 samples.

Results

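The response of the heat-sensitive broccoli line to moderate warmth was taken as the difference between shoot meristems of plants kept at 22 °C (HS22) and shoot meristems of plants kept at 15 °C (HS15). It rests on 6 of the 18 arrays of the series, the 3 arrays whose labels give the heat-sensitive line at 22 °C and the 3 whose labels give it at 15 °C. Broccoli is Brassica oleracea var. italica, and the heat-sensitive line (HS, named BR1 op in the methods) forms heads at 15 °C only, whereas the heat-tolerant line (HT), an inbred line, also forms them at higher temperature. The other 12 arrays hold HS at 27 °C (HS27) and HT at 22, 15 and 27 °C (HT22, HT15 and HT27), with 3 arrays each. All plants, HS15 included, were germinated for 10 days and grown in pots for 30 days at 22 °C under 18 h of light and 6 h of dark before the transfer to their test temperature. HS22 plants therefore stayed at the temperature of their earlier growth, and HS15 plants were moved to a cooler one. The labels give 2 weeks at the test temperature and the methods 10 days. The replicates are called biological. RNA came, per the methods, from whole shoot meristems of 3 individual plants, and each array took 1 sample. The sources used here do not say whether those plants were pooled in each sample or gave 1 replicate each, and they do not give the hour of sampling.

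A shoot meristem holds the dividing cells from which leaves, stems and, after the floral transition, the broccoli head arise. In Arabidopsis the transition is held back by FLC, a MADS-box repressor that prolonged cold silences, and is timed by the circadian clock through GIGANTEA (GI) and related factors. Warmth also acts on protein folding: heat shock proteins bind unfolded chains, the small ones as holding chaperones and HSP70 as an ATP-driven folding machine helped by DnaJ proteins. Roles given below are those known in Arabidopsis, since each gene name is that of the Arabidopsis locus with which the study annotated a probe. Brassica genomes carry several copies of most Arabidopsis genes, and the files do not tell which copy a probe measures.

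Each value is a log2 signal: the log2 of the background-corrected intensity of a probe in one array after quantile normalization, which gives all arrays the same distribution. A difference of 1 on this scale is a fold of 2. A probe was called higher or lower at 22 °C where limma's test, fitted to all 18 arrays with 1 mean per line and temperature, gave a Benjamini-Hochberg adjusted p under 0.05 over 43603 probes, with no minimum fold unless one is stated. On these 6 arrays the scanner software marked 65.6% to 68.5% of the spots as well above background and none as saturated. The 3 HS22 arrays lay on slides 1 to 3 and the HS15 arrays on slides 4 and 5, so temperature and slide cannot be told apart in HS22 against HS15. HS22 replicates 1 and 2 were scanned on the first scan day and HS22 replicate 3 on the second, with all HS15 arrays. The tissue label could be checked with few markers. Of 6 meristem markers only CUC1, a boundary factor, had a probe, which was well above background on every array, with log2 signals of 6.45 to 8.74 in HS22 and 6.10 to 6.38 in HS15 (adjusted p = 0.127). Of the floral organ markers only STK had probes, neither of them called. The mean log2 signal of the 13 probes of 11 photosynthesis genes, markers of leaf tissue, was 10.61 to 11.31 in HS22 and 10.51 to 10.97 in HS15, and none of the 13 was called. In whole meristems, fewer cells of a type and less RNA per cell cannot be told apart.

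At 22 °C, 2724 of the 43603 probes (6.25%) differed from 15 °C, 1322 of them higher (3.03%) and 1402 lower (3.22%). Most differences were small, with a median log2 difference of 0.612 among the probes called higher and −0.59 among those called lower. A fold of 2 or more was reached by 654 called probes (1.5%), of which 315 were higher (0.722%) and 339 lower (0.777%). A fold of 4 or more was reached by 61 higher and 89 lower probes, and a fold of 8 or more by 14 higher and 33 lower probes. The log2 differences of all probes had a median of −0.0091, with 5th and 95th percentiles of −0.657 and 0.694. The arrays of the 2 groups did not overlap for 2707 of the called probes, against 9147 of all probes (21%). HS arrays with the same replicate number were taken as pairs, which the labels do not state. With replicate as a block 2012 probes were called higher and 2133 lower. Single arrays weighed on the counts: without HS22 replicate 1, 707 probes were called higher and 773 lower, without HS15 replicate 1 781 and 854, and without HS22 replicate 2 834 were called higher. None of the calls changed direction under any alternative tried.

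**Figure D1:**
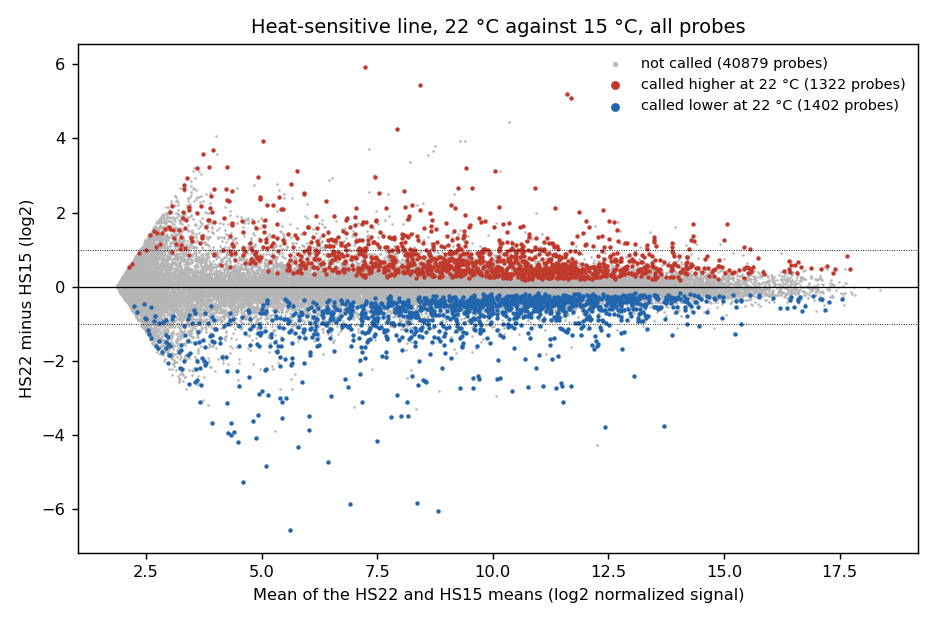
Log2 difference of HS22 minus HS15 (vertical axis) against the mean log2 signal of each of the 43603 probes (horizontal axis, mean of the HS22 and HS15 means), with called probes coloured by direction. The 1322 probes called higher and the 1402 called lower lie in similar numbers on either side of 0, and called differences reach further below 0 than above it.

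Names could be given to 2157 probes, which carry 1728 Arabidopsis loci in the study's own tables. Those tables hold probes that the study selected on these same arrays, so named probes were called more often than probes in general: 231 (10.7%) were higher and 250 (11.6%) lower at 22 °C. The counts of the gene groups below are read against these shares, and they are not independent evidence of a direction. The lists of genes by function hold 400 of these probes, of which 45 were called higher and 37 lower. The other 2243 called probes have no annotation in the files used here.

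Heat shock proteins and chaperones held the largest rises among named genes. Of 49 probes, 16 (32.7%) rose at 22 °C and 3 (6.12%) fell, with a median log2 difference of 0.22. The inducible cytosolic HSP70 (AT3G12580), which refolds heat-damaged proteins, had log2 signals of 10.14, 9.94 and 10.09 in HS22 and 5.80, 4.96 and 6.62 in HS15. The HS22 arrays lay close together and far above all HS15 arrays, which spread over a wider range. The difference was 4.26 ± 0.63 (SE, n = 3 each), a 19.2-fold rise with an adjusted p of 0.00147. A second HSP70 probe was well above background on all HS22 arrays, at 5.90, 5.85 and 5.59, and on no HS15 array, at 1.92, 1.95 and 2.44. It was at least 3.33-fold higher (adjusted p = 0.00047), where the bound sets the HS22 mean against the dimmest signal that counts as well above background, and it was not called with normexp background correction. The third HSP70 probe differed by 0.69 ± 0.50 and was not called.

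The small heat shock proteins rose together with HSP70. HSP17.6A, a cytosolic class II protein, had log2 signals of 7.58, 7.44 and 6.99 in HS22 and 4.28, 4.01 and 4.33 in HS15, a difference of 3.13 ± 0.44 (adjusted p = 0.00111). Its second probe, which is brighter, was higher by 1.75 ± 0.20. HSP17.6II, the other class II member, had log2 signals of 6.98, 7.94 and 6.12 in HS22 and 4.34, 4.37 and 4.05 in HS15, a difference of 2.76 ± 0.37 (adjusted p = 0.000764). For both genes every HS22 array exceeded every HS15 array, although the first probe of each was well above background on only 2 of the 3 HS15 arrays. HSP23.6-MITO, which works in mitochondria, had 5.58, 5.05 and 6.33 in HS22 and was at background in HS15, which makes it at least 3.05-fold higher (adjusted p = 0.00366). The abundant class I protein HSP17.6B-CI rose less, by 1.07 ± 0.10 at its most changed probe, and its other 2 probes by 0.69 and 0.68. Among helpers of HSP70, the DnaJ protein AT3G14200 rose by 1.01 ± 0.10, GFA2, a mitochondrial DnaJ protein, by 0.29 ± 0.07, and the HSP70-interacting protein HIP1 by 0.22 ± 0.06 at 1 of its 2 probes. The calls of HSP17.6A, HSP17.6II, HSP23.6-MITO, AT3G14200 and the first HSP17.6B-CI probe held with any HS array left out. Those of the other HSP17.6B-CI probes, GFA2 and HIP1 were lost without HS22 replicate 1 or 2 or HS15 replicate 2 or 3, with adjusted p up to 0.16, and those of GFA2 also without HS22 replicate 3 and of HIP1 without HS15 replicate 1.

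Not all chaperones rose. HSP60, the mitochondrial chaperonin, had log2 signals of 11.72, 11.84 and 11.91 in HS22 and 12.82, 12.77 and 12.55 in HS15. All HS22 arrays were below all HS15 arrays, with a difference of −0.89 ± 0.11 (adjusted p = 0.000339), and its second probe differed by −0.48 ± 0.25 and was not called. HSC70-1, the HSP70 that cells make without heat, fell by 0.57 ± 0.14, and the GrpE co-chaperone AT5G55200, a nucleotide exchange factor, by 0.47 ± 0.11. The heat stress transcription factors with a probe, HSFC1 and HSFA7B, had differences of −0.53 ± 0.16 and −0.57 ± 0.46 and were not called. Without HS22 replicate 1, HS22 replicate 2 or HS15 replicate 3, 9 members of this group were called higher, 10 were with slide as a random block, and 6 were when the fit held only the 6 HS arrays at 15 and 22 °C. HSP60 was called lower under every such omission, HSC70-1 not without HS22 replicate 1 or 3 or HS15 replicate 1 or 2 (adjusted p up to 0.109), and AT5G55200 only without HS22 replicate 3.

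**Figure D2:**
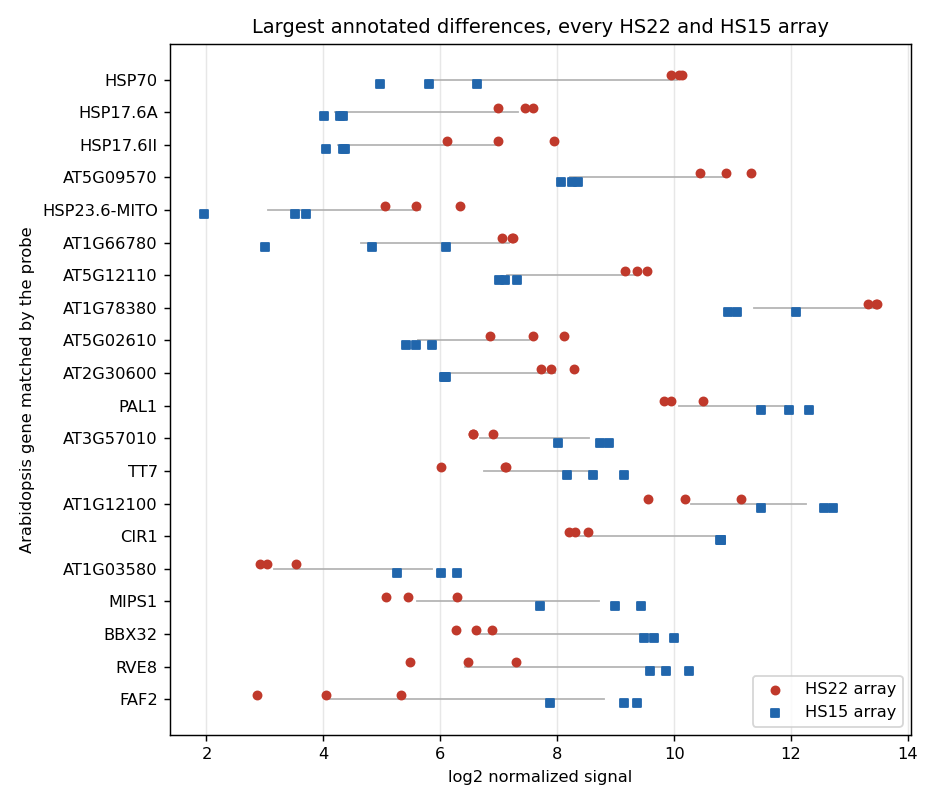
Log2 normalized signal (horizontal axis) of every HS22 array (circles) and HS15 array (squares) for the named genes with the largest differences (1 row per gene), with a grey line joining the means of 3 arrays. The HS22 arrays lie right of the HS15 arrays from HSP70 down to AT2G30600 and left of them from PAL1 down to FAF2, with no overlap in any row.

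Of 25 probes for flowering and the clock, 19 were not called, and the 3 (12%) that rose and the 3 (12%) that fell are shares near those of all named probes (10.7% and 11.6%), so the count sets the group apart in neither direction. GI, a clock protein of the photoperiod pathway, had log2 signals of 12.90, 12.91 and 12.91 in HS22 and 11.09, 11.33 and 10.99 in HS15. The HS22 arrays were almost equal and all above HS15, by 1.77 ± 0.12, a 3.4-fold rise (adjusted p = 3.54e-06). PKS1, a substrate of phytochrome, rose by 1.27 ± 0.27 (adjusted p = 0.0127, and up to 0.0591 without HS22 replicate 1 or HS15 replicate 2, where GI was the 1 member called higher). The transcript CCL, which the clock controls, had 3 probes with differences of 1.26 to 1.39, none of which was called.

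The MYB-like clock protein CIR1 had log2 signals of 8.20, 8.30 and 8.53 in HS22 and 10.78, 10.80 and 10.80 in HS15. Every HS22 array was lower, and the mean fell by 2.45 ± 0.15, or 5.48-fold (adjusted p = 1.04e-06). RVE8, a clock activator of the same protein family whose messenger peaks in the morning, had 7.29, 6.48 and 5.48 in HS22 and 9.86, 10.25 and 9.59 in HS15. Its HS22 arrays were spread out but all lower, with a difference of −3.48 ± 0.58, an 11.1-fold fall (adjusted p = 0.00331). BBX32, a B-box protein of light signalling, had 6.61, 6.89 and 6.27 in HS22 and 9.48, 10.00 and 9.65 in HS15, a difference of −3.12 ± 0.34 (adjusted p = 0.000175). RVE8, CIR1 and BBX32 were the 3 members called lower, and with any 1 HS array left out 3 members were called lower. In the fit of only the 6 HS arrays RVE8 was not called (adjusted p = 0.0521), while CIR1 and BBX32 were (0.00702 and 0.0154). Clock transcripts change over the day, and whether both groups were sampled at the same hour was not tested.

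FLC, the repressor of flowering, had log2 signals of 13.46, 13.46 and 13.26 in HS22 and 12.52, 12.50 and 12.92 in HS15. All HS22 arrays were above all HS15 arrays, by 0.75 ± 0.17 in the mean, a 1.68-fold rise (adjusted p = 0.0168). The call depended on single arrays: with each HS array left out in turn the adjusted p was 0.0123 to 0.07, and it was above 0.05 without HS22 replicate 1 or 2 or HS15 replicate 1 or 2. SUF4, which activates FLC, had 7.84, 8.01 and 8.09 in HS22 and 7.55, 7.65 and 7.59 in HS15, which differ by 0.38 ± 0.12 and gave no call (adjusted p = 0.0792). With the replicate block SUF4 was called higher, by 0.38 ± 0.08 (adjusted p = 0.0156), and with scan day as a block by 0.56 ± 0.07 (adjusted p = 0.000613). The chromatin remodeller PKL differed by 0.21 ± 0.09 (adjusted p = 0.241) and the MADS-box gene AGL79 by 0.48 ± 0.19 (adjusted p = 0.183). LFY, which gives floral meristems their identity, had 9.08, 9.37 and 7.57 in HS22 and 8.07, 8.48 and 7.79 in HS15. Its groups overlapped because HS22 replicate 3 was the lowest of the 6 arrays, with 0.56 ± 0.41 as the difference and no call (adjusted p = 0.546). HS22 replicate 3 is also the only HS22 array of the second scan day.

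FAF2, a member of a family that limits the size of the shoot meristem, had the largest fall among named genes. Its log2 signals were 5.32, 4.04 and 2.87 in HS22 and 9.14, 9.37 and 7.88 in HS15. The HS22 arrays were all lower, and only 1 of them was well above background for this probe. The difference was −4.72 ± 0.82 (adjusted p = 0.00435, and 0.062 in the fit of only the 6 HS arrays).

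MIPS1, the synthase that makes inositol phosphate from glucose 6-phosphate, was lower at all 5 of its probes, which stand for 4 different targets. At the most changed probe its log2 signals were 5.45, 5.07 and 6.29 in HS22 and 8.98, 7.70 and 9.44 in HS15, and the difference was −3.10 ± 0.53 (adjusted p = 0.00406). In the fit of only the 6 HS arrays that probe was not called (adjusted p = 0.0786). The differences of the 5 probes lay between −3.10 and −2.48, although their levels span a wide range.

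Of 15 starch and sugar probes, 5 (33.3%) fell and 1 (6.67%) rose, and 13 had a difference below 0, with a median of −0.52. GPT2, which carries glucose 6-phosphate into plastids, had log2 signals of 11.76, 11.71 and 11.21 in HS22 and 12.75, 13.02 and 12.86 in HS15, a difference of −1.32 ± 0.30 (adjusted p = 0.0184). BAM1, a chloroplast starch-degrading amylase, fell by 0.62 and 0.60 at its 2 probes. The sucrose-making enzymes SPP1 and SPS1F fell by 0.82 ± 0.20 and 0.63 ± 0.17, and for SPS1F the groups overlapped. SEX1, which phosphorylates starch before its breakdown, was the one member that rose, by 0.69 ± 0.17. These calls were fragile, since only 1 member was called lower without HS22 replicate 1, HS22 replicate 2 or HS15 replicate 1, and 2 without HS15 replicate 3. BAM1, SPP1 and SPS1F lost their calls in these 4 omissions (adjusted p up to 0.151), and SEX1 without HS22 replicate 3 or HS15 replicate 1 or 2 (adjusted p up to 0.0913). GPT2 was above the threshold without HS15 replicate 2 (adjusted p = 0.0624) or HS22 replicate 3 (0.063).

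In the flavonoid group 3 of 9 probes (33.3%) fell and none rose, with a median of −0.98. PAL1, which feeds phenylalanine into the phenylpropanoid pathway, had log2 signals of 9.95, 9.83 and 10.49 in HS22 and 11.97, 11.48 and 12.30 in HS15. All HS22 arrays were lower and the fall was 3.55-fold (difference −1.83 ± 0.26, adjusted p = 0.00111). Further down the pathway, TT7, the flavonoid 3-prime hydroxylase, fell by 1.90 ± 0.44 (adjusted p = 0.0213), and UF3GT, which decorates anthocyanins with sugar, by 1.62 ± 0.36 (adjusted p = 0.0181). The 2 probes of DFR, the reductase that leads to anthocyanins, had differences of −0.98 ± 0.30 and −1.15 ± 0.39 and were not called. MYB3, a repressor of phenylpropanoid genes, was the one member with a difference above 0, of 0.54 ± 0.26. Only PAL1 was called under every omission of an array. TT7 and UF3GT each lost the call without HS22 replicate 3, HS15 replicate 2 or HS15 replicate 3, with an adjusted p of 0.0315 to 0.0818 for TT7 and of 0.00812 to 0.0727 for UF3GT over all omissions.

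Among the 20 cell wall probes, 5 (25%) fell and 1 (5%) rose. XTH18, which cuts and rejoins xyloglucan as walls grow, had log2 signals of 9.93, 10.10 and 10.03 in HS22 and 10.93, 11.15 and 10.90 in HS15, a difference of −0.97 ± 0.11 (adjusted p = 0.000223). Its close relative XTH19 differed by −1.11 ± 0.40 and was not called. The fasciclin-like protein FLA2 fell by 0.61 ± 0.13 and the pectin lyase-like AT1G04680 by 0.75 ± 0.15, whereas the arabinogalactan protein AGP15 rose by 0.63 ± 0.13. CSLE1, a cellulose synthase-like protein, fell by 1.26 ± 0.34 at 1 of 2 probes, with an adjusted p of 0.0187 to 0.168 as single arrays were left out. Without HS22 replicate 1 or HS22 replicate 2, 2 members of this group were called lower, and without HS15 replicate 1, 3 were. FLA2 lost its call in these 3 omissions (adjusted p up to 0.0652), and CSLE1 in all but that of HS15 replicate 2.

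Of 18 probes for glucosinolates and sulfate assimilation, 2 (11.1%) rose and 2 (11.1%) fell. Both rises were of ESP, the epithiospecifier protein that turns glucosinolate breakdown towards nitriles. It had log2 signals of 12.76, 12.01 and 12.90 in HS22 and 11.19, 11.40 and 11.67 in HS15 at its brighter probe, a difference of 1.13 ± 0.25 (adjusted p = 0.017, and 0.0056 to 0.0735 with single arrays left out, above 0.05 without HS22 replicate 1 or 3 or HS15 replicate 1 or 2). SUR1, the C-S lyase of glucosinolate synthesis, had 11, 11.15 and 10.77 in HS22 and 11.78, 11.87 and 12.01 in HS15, a fall of 1.88-fold (difference −0.91 ± 0.16, adjusted p = 0.00452). The 4 probes of BCAT4, the first enzyme of methionine chain elongation, had differences of −0.42 to −0.18 and none was called. APS1, an ATP sulfurylase, was called lower at 1 of 4 probes, all of which had differences of −0.52 to −0.46, and that call held only without HS22 replicate 3. No member was called higher without HS22 replicate 1 or HS15 replicate 1 or 2.

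Hormone genes were listed as auxin, jasmonate and other hormones, and most probes of each list were not called. In the auxin group 11 of 12 probes had a difference above 0, with a median of 0.63, but only ABP1 (1 probe, 8.33%), an auxin-binding protein, was called. ABP1 had log2 signals of 7.80, 7.99 and 8.30 in HS22 and 6.78, 6.69 and 7.02 in HS15, and all HS22 arrays were higher, by 1.20 ± 0.18 (adjusted p = 0.00169). Among 21 probes of other hormones, 3 (14.3%) rose and 1 (4.76%) fell. GA2OX2, which inactivates gibberellins, had 7.51, 7.68 and 7.35 in HS22 and 5.91, 6.12 and 6.02 in HS15. Its rise was 2.82-fold (difference 1.49 ± 0.19, adjusted p = 0.000634). EBF2, an F-box protein that limits ethylene signalling, rose by 0.76 ± 0.13, and ABA4, an enzyme of abscisic acid synthesis, fell by 0.70 ± 0.09. ABI5, a transcription factor of abscisic acid signalling, rose by 0.48 ± 0.13 (adjusted p = 0.0479). That call was lost with any HS22 or HS15 array left out. Of 8 jasmonate probes only AOC4, an allene oxide cyclase, was called, with a fall of 0.54 ± 0.10, and the 4 probes of LOX2, a lipoxygenase of the same pathway, differed by 0.16 to 0.63 without a call.

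Of 18 probes for the cell cycle and histones, 3 (16.7%) rose and none fell. CYCD3;2, a D-type cyclin that drives entry into division, had log2 signals of 9.69, 9.63 and 9.63 in HS22 and 9.00, 9.17 and 8.91 in HS15, a difference of 0.62 ± 0.09 (adjusted p = 0.00162). MAP65-5, which bundles microtubules, rose by 0.87 ± 0.18 (adjusted p = 0.0101). HTA7, a histone H2A, had 15.27, 15.40 and 14.90 in HS22 and 13.39, 13.35 and 13.73 in HS15, a difference of 1.70 ± 0.38 (adjusted p = 0.018). The call of HTA7 was lost without HS22 replicate 1 or 2 or HS15 replicate 1 or 2, with an adjusted p of up to 0.0663. The replication clamp PCNA1 differed by 1.00 ± 0.28 and just missed the threshold (adjusted p = 0.0506). The mitotic cyclins CYCB2;3 and CYCB1;3 had differences of 0.19 ± 0.24 and −0.15 ± 0.10.

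Probes whose descriptions name ribosomal proteins or a constituent of the ribosome were called at shares near those of all named probes, 6 of 67 (8.96%) higher and 7 (10.4%) lower. The falls were small, between −0.61 and −0.21. The fall of 0.61 was at 1 of the 3 probes of AT5G20180, and another of them differed by 3.67 without a call. With the 75th percentile scaling 2 of the 67 were called lower, 1 was without HS22 replicate 3 or without HS15 replicate 1 or 2, and 3 were without HS22 replicate 1 or 2. Some rises were larger, while those of AT1G02780 and AT1G49400 were 0.57 each. AT5G12110, a translation elongation factor of the EF1B family that its description places in this list, had log2 signals of 9.36, 9.54 and 9.16 in HS22 and 7.11, 7.01 and 7.31 in HS15, a difference of 2.21 ± 0.17 (adjusted p = 7.88e-06). AT5G02610 rose by 1.90 ± 0.26 and AT1G77750 by 1.36 ± 0.27. The same groups of arrays were well apart for AT2G07725, with 13.20, 13.04 and 12.89 in HS22 and 11.85, 11.74 and 11.49 in HS15.

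In the remaining groups the shares called were near or below those of all named probes (10.7% higher and 11.6% lower). Among 38 probes for receptor kinases and calcium signalling, 5 (13.2%) rose and 3 (7.89%) fell, with differences of the whole group between −0.52 and 0.87. The calcium-dependent kinase CPK32 rose by 0.87 ± 0.17 and the kinase MEKK1 of the MAP kinase cascade by 0.46 ± 0.08. The calmodulin CAM7 rose by 0.41 ± 0.10 at 1 of its 3 probes, whose differences were −0.2 to 0.41. PSKR2, a receptor for the peptide phytosulfokine, fell by 0.52 ± 0.10, and ERL2, a relative of the receptor kinase ERECTA, by 0.47 ± 0.10. CAM7 lost its call without HS22 replicate 2 or 3 or HS15 replicate 1 or 2 (adjusted p up to 0.0756) and ERL2 without HS15 replicate 3 (0.0504). With HS22 replicate 2 or HS15 replicate 1 left out 2 members of this group were called higher, and with HS22 replicate 1 or HS15 replicate 3 left out 3 were. Of 25 redox probes 3 (12%) rose and 2 (8%) fell. TRXF2, a chloroplast thioredoxin, was called higher at 3 probes (0.44, 0.43 and 0.38), while DHAR1, which recycles ascorbate, fell by 0.62 ± 0.12. The peroxidase family member AT5G06730 fell by 1.11 ± 0.29 (adjusted p = 0.0376), a call that held only without HS15 replicate 1. No redox member was called higher without HS22 replicate 1 or without HS15 replicate 1 or 2. TRXF2 had an adjusted p of up to 0.101 with single arrays left out, and 1 redox member was called higher with the 75th percentile scaling. Of 39 defence probes 1 rose and 2 fell, and with single arrays left out 0 or 1 rose and 0 or 1 fell. None of the 16 probes for cold and dehydration genes was called by limma over all arrays, and their differences lay between −1.22 and 1.7. Among them COR78, a classic cold-induced gene, differed by −0.57 ± 0.24 and COR413-PM1, a cold acclimation membrane protein, by 0.31 ± 0.22.

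The replicate block moved several of these counts by more than 1.5 times. With it 5 flowering and clock probes were called higher and 5 lower, 3 auxin probes higher, 5 cell cycle probes higher, 8 receptor kinase and calcium probes higher and 6 lower, 11 ribosomal probes lower, 3 defence probes higher, 2 cell wall probes higher and 2 probes of other hormones lower.

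**Figure D3:**
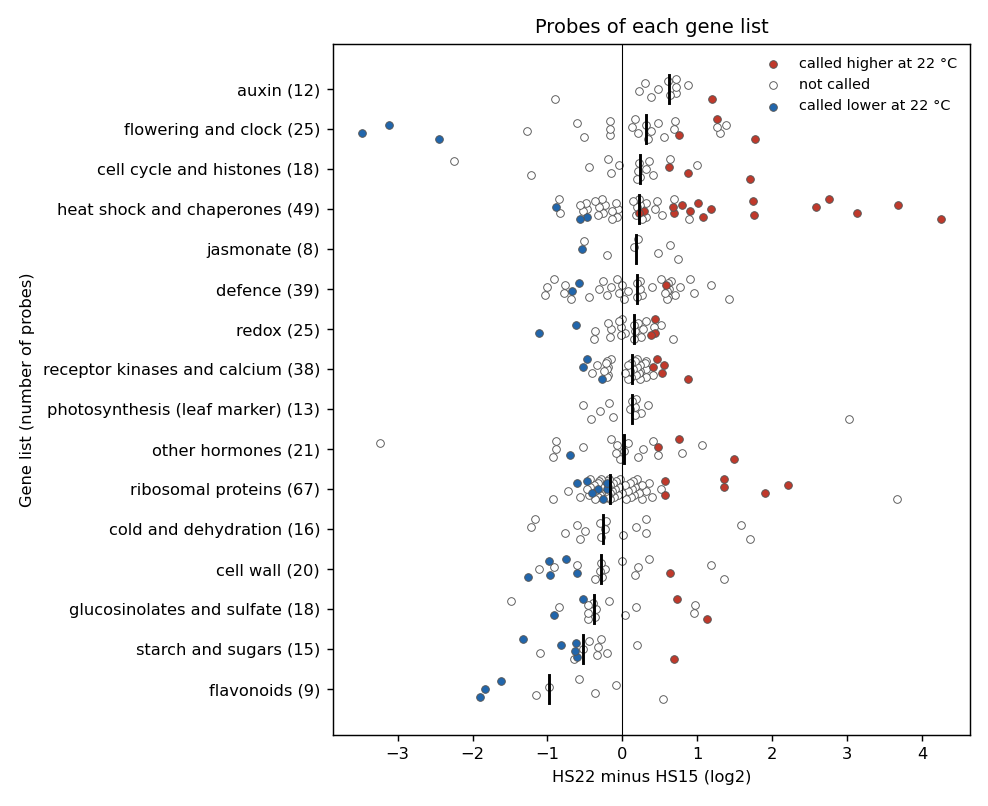
Log2 difference of HS22 minus HS15 for every probe of each gene group (1 row per group, 1 point per probe), coloured by whether it was called higher, lower or not at all. Heat shock and chaperone probes reach furthest to the right, at up to 4.26, and all 3 called flavonoid probes and 5 of the 6 called starch and sugar probes lie left of 0.

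Outside the groups, the largest rises of named genes were of a mixed set. AT5G09570, a small protein of the Cox19-like CHCH family, had log2 signals of 10.89, 11.31 and 10.44 in HS22 and 8.26, 8.06 and 8.36 in HS15, a 6.29-fold rise (difference 2.65 ± 0.20, adjusted p = 7.79e-06). AT1G66780, a MATE efflux carrier, had 7.22, 7.25 and 7.05 in HS22 and 4.83, 3.00 and 6.10 in HS15, with a difference of 2.53 ± 0.55 (adjusted p = 0.0153, and 0.0543 without HS22 replicate 1), and 2 of its 3 HS15 arrays were well above background. The glutathione transferase AT1G78380 had 13.46, 13.32 and 13.47 in HS22 and 11.07, 10.92 and 12.09 in HS15, and rose by 2.06 ± 0.34. In all 3 genes the HS22 arrays were higher, and in AT1G66780 and AT1G78380 HS15 replicate 3 came nearest to them. AT2G30600, a BTB/POZ domain protein, rose by 1.88 ± 0.12 (adjusted p = 1.75e-06).

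Among the falls, AT1G03580, which is annotated as a pseudogene with a MATH domain, was well above background on no HS22 array. It was at least 3.35-fold lower than in HS15 (adjusted p = 4.40e-05). AT1G12100, a lipid-transfer-like protein, had 10.18, 11.15 and 9.55 in HS22 and 12.56, 12.71 and 11.49 in HS15, a difference of −1.96 ± 0.43. Its adjusted p of 0.0161 lay between 0.00769 and 0.067 with single arrays left out, and above 0.05 without HS22 replicate 1 or 3 or HS15 replicate 1 or 2. AT3G57010, of a calcium-dependent phosphotriesterase family, fell by 1.87 ± 0.34 (adjusted p = 0.00611).

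The probes with the largest differences of all carry no gene name in the files used here. A_46_P180269 had log2 signals of 10.70, 10.59 and 9.27 in HS22 and 3.37, 4.55 and 4.87 in HS15, a difference of 5.92 ± 0.95 (adjusted p = 0.00264), with 2 of the 3 HS15 arrays well above background. A_46_P339750 had 11.22, 11.24 and 10.92 in HS22 and 5.73, 4.82 and 6.54 in HS15, and A_46_P187124 had 14.34, 14.38 and 13.88 in HS22 and 8.98, 8.29 and 9.76 in HS15. These last probes rose by 5.43 ± 0.30 and 5.19 ± 0.29, both with an adjusted p of 6.87e-07, and in both HS15 replicate 2 was the lowest array. In the other direction A_46_P250364 was at background in all HS22 arrays and at 8.68, 9.00 and 9.00 in HS15, which makes it at least 27.5-fold lower (adjusted p = 9.87e-07). A_46_P312370 fell by 6.05 ± 0.49 (adjusted p = 1.08e-05). A_46_P104294 had 4.67, 4.52 and 2.79 in HS22, where only 1 of 3 arrays was well above background, and 9.99, 9.69 and 9.85 in HS15, so that its measured difference of −5.85 ± 0.44 (adjusted p = 7.80e-06) rests in part on signals near background. The 6 probes stand for different targets.

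Complete gain or loss of signal was rare. Of the probes well above background on all 3 HS22 arrays and on no HS15 array, of which there were 40, 25 were called higher, by at least 1.38-fold to at least 7.7-fold with a median bound of 2.23. The reverse held for 61 probes, of which 36 were called lower, by at least 1.38-fold to at least 27.5-fold with a median bound of 3.18. HSP70 and HSP23.6-MITO were the 2 named genes in the first set, and AT1G03580 was the 1 in the second.

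Genes with several probes show how far the measurements repeat within an array. Of 325 loci with 2 or more probes, 117 had at least 1 call, and in 51 of these all probes were called in the same direction. Besides MIPS1, AT1G13640 fell at 4 of 4 probes, by 0.90 to 0.78, and AT4G31450 rose at 4 of 4 probes, by 0.56 to 0.71. AGO5, an Argonaute protein that binds small RNAs, fell at 3 of 4 probes. LTP6, a lipid transfer protein, was called at none of 6 probes although all 6 had differences of 0.51 to 0.65. AT5G15470 was the 1 locus with calls in both directions, of −0.77 and 0.56 at 2 probes of different targets.

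The same step was set beside the values of HT22 against HT15, which come from other arrays but from the same slides. HT22 lay on slides 1 to 3 and HT15 on slides 4 and 5, so agreement between the lines cannot separate temperature from slide. In HT 2206 probes (5.06%) were higher and 2246 (5.15%) lower at 22 °C. Of the probes called higher in HS, 928 were called higher in HT too, which is 70.2% of the HS list and 42.1% of the HT list. Of those called lower in HS, 914 were called lower in HT, 65.2% of the HS list and 40.7% of the HT list, and 0 probes were called in opposite directions. The clock genes had similar values in both lines: the difference was 1.77 in HS and 2.05 in HT for GI, −2.45 and −2.34 for CIR1, and −3.48 and −4.06 for RVE8. FLC differed by 0.75 in HS and 1.40 in HT, and the difference between the lines was −0.66 (adjusted p = 0.673). The first HSP70 probe differed by 4.26 in HS and 2.46 in HT, again without a call for the difference between the lines (1.80, adjusted p = 0.964). The second HSP70 probe differed by 3.68 in HS and −0.02 in HT, and the difference between the lines was 3.7 ± 0.65 (adjusted p = 0.0897). For that probe no HT array was well above background at 15 or 22 °C, so HT gives no response to compare. BBX32 differed by −3.12 in HS and −5.29 in HT (adjusted p = 0.187 for the difference).

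The next step in HS, HS27 against HS22, uses the HS22 arrays again, so its values are only set side by side with those of HS22 against HS15. There 551 probes (1.26%) were higher and 414 (0.949%) lower. Of the 49 heat shock and chaperone probes 19 were higher at 27 °C than at 22 °C and none lower. The first HSP70 probe was higher by another 3.93 (adjusted p = 0.00535), HSP17.6A by 3.54 (adjusted p = 0.00119) and HSP17.6II by 3.02 (adjusted p = 0.00109). The third HSP70 probe, which was not called between 15 and 22 °C, was higher by 3.02 at 27 °C. GI was lower at 27 °C by 0.51 (adjusted p = 0.0456), and FLC differed by 0.48 without a call (adjusted p = 0.186). BBX32 was higher at 27 °C by 2.4 (adjusted p = 0.00285), opposite to its fall at 22 °C, while RVE8 and CIR1 differed by 0.64 and −0.23 and were not called. ABP1 was higher by 1.49 and AT5G12110 by 2.25 at the second step as well.

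**Figure D4:**
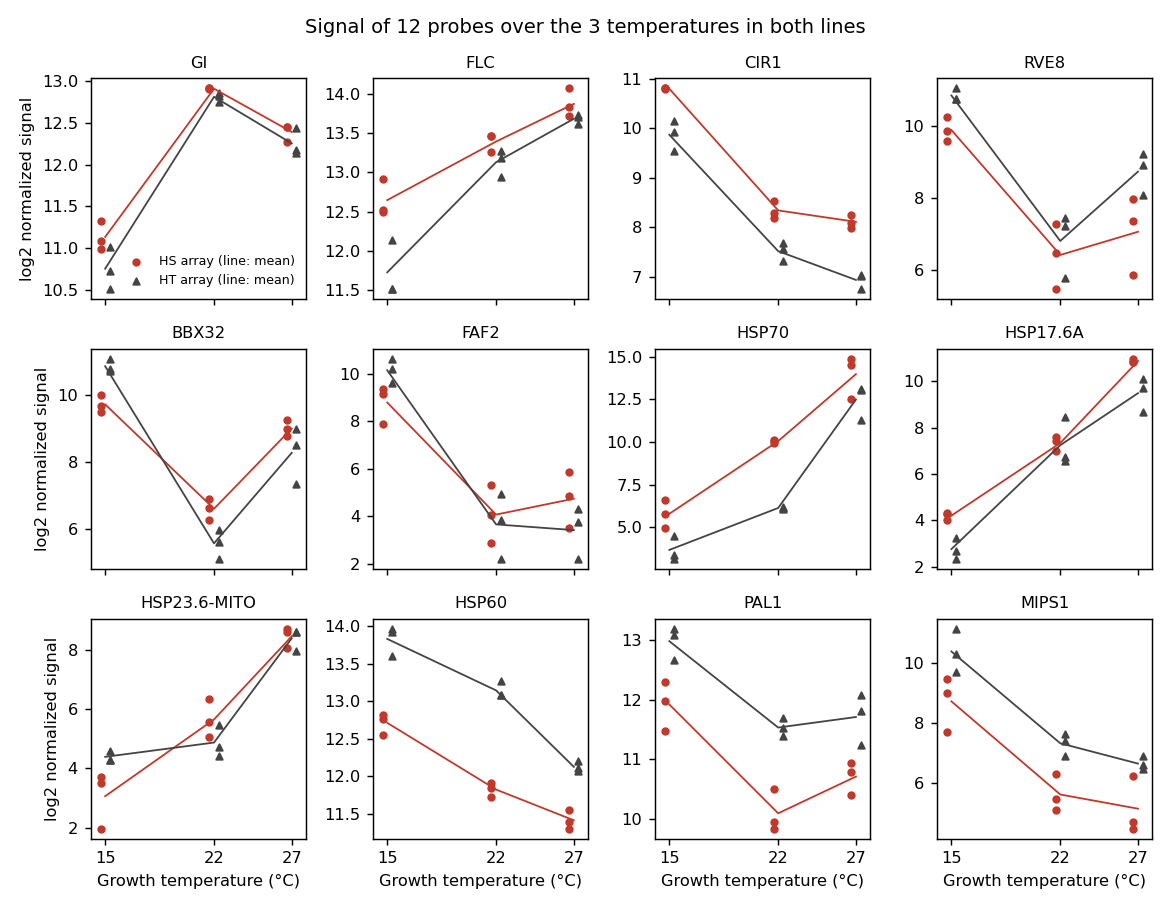
Log2 normalized signal (vertical axis, scaled to each gene) of 12 probes at 15, 22 and 27 °C (horizontal axis), with circles for HS arrays, triangles for HT arrays and lines through the means of 3 arrays. In HS the signal of HSP70 is higher at each step, by 4.26 and 3.93, whereas that of BBX32 differs by −3.12 at the first step and by 2.4 at the second.

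Whether a response was particular to HS was tested as the difference between the lines, (HS22 minus HS15) less (HT22 minus HT15). It was called for 15 of 43603 probes (0.0344%), while 2344 had an unadjusted p under 0.05. Of the named genes, AT1G80530, a transporter of the major facilitator superfamily, had log2 signals of 7.75, 7.49 and 7.48 in HS22 and 6.49, 6.70 and 6.54 in HS15. It rose in HS by 1.00 ± 0.09 and differed by 0.08 in HT, and the 2 responses differed by 0.92 ± 0.13 (adjusted p = 0.0377). The call was lost without HS15 replicate 1 (adjusted p = 0.076), HT22 replicate 1 (0.125) or HT22 replicate 2 (0.0556). It was also lost with the 75th percentile shift (0.0579), normexp (0.0588) and the authors' values (0.0589). A_46_P232754, which has no gene name, rose by 1.85 in HS and differed by 0.37 in HT (difference 1.48 ± 0.17, adjusted p = 0.00687). A_46_P151314 fell by 1.61 in HS and differed by 0.01 in HT (difference −1.62 ± 0.24, adjusted p = 0.041), a call that held in 3 of 12 omissions, those of HS22 replicate 3, HS15 replicate 3 and HT15 replicate 3, while A_46_P232754 held in all 12. With normexp the call of A_46_P232754 was lost (adjusted p = 0.0907), and with the 75th percentile shift that of A_46_P151314 was (0.111). For A_46_P329330 and A_46_P160434, which fell by 1.06 and 1.35 in HS, and for A_46_P382438, which rose in HS, no HT array was well above background at 15 or 22 °C, so HT gives no response to compare. The anthocyanin reductase DFR fell in HT by 3.56 and differed by −0.98 in HS, and the difference between the lines was 2.57 ± 0.42 (adjusted p = 0.068). AT1G78380, with 2.06 in HS and 0.19 in HT, did not pass this test either (adjusted p = 0.323). The count of 15 moved with single arrays, to 6 without HT22 replicate 1 and 200 without HT15 replicate 3, and was 2 with the 75th percentile scaling.

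**Figure D5:**
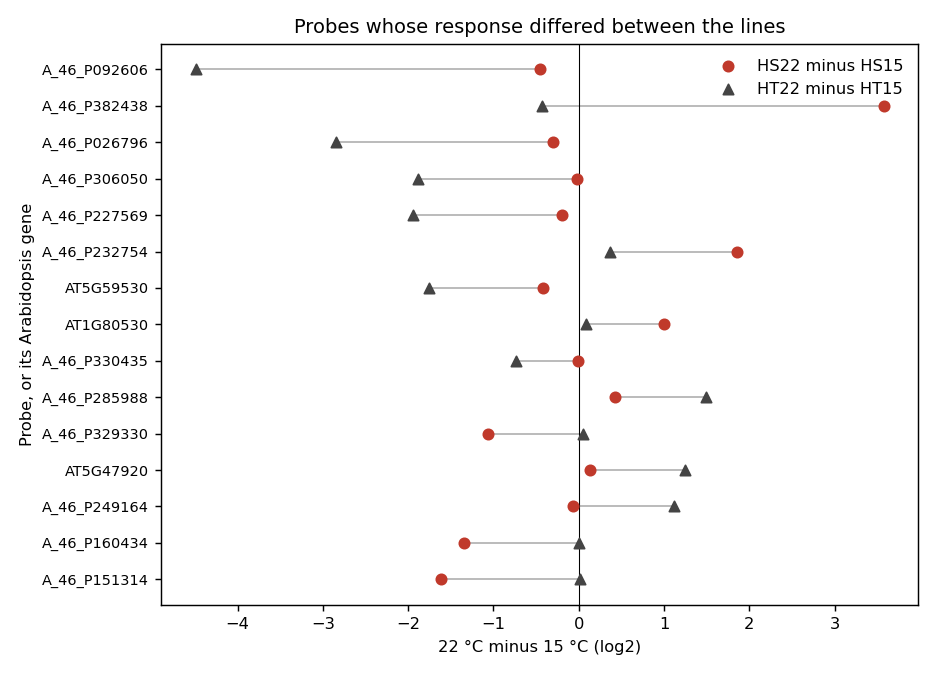
Log2 difference at 22 °C against 15 °C in HS and in HT for the 15 probes called for a difference between the lines (1 row per probe), with circles for HS, triangles for HT and a grey line joining them. AT1G80530 lies at 1.00 in HS and 0.08 in HT, and A_46_P232754 at 1.85 in HS and 0.37 in HT.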

How the data were processed

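Labelled RNA of shoot meristems was hybridised to 18 Agilent 1-colour arrays with Brassica probes. The paper names the chip as one of Brassica napus, a species other than the B. oleracea of the samples. The authors deposited the scanner output, in which the intensity of each spot had been corrected for background by Feature Extraction 10.7.1.1, per the file headers, with no step between arrays. Their own log2 values, deposited beside it, were found to be the log2 intensity after a shift by each array's 75th percentile and a centring of every probe on its median. Control spots and outlier spots (4 to 24 per array) were left out and spots of a probe averaged. Quantile normalization was applied to the log2 intensities of all 43603 probes, since the methods name RMA. Of these probes 165 lack a value on some array.

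limma 3.58.1 (R 4.3.3) fitted 1 mean per line and temperature to all 18 arrays (lmFit, contrasts.fit, eBayes, two-sided, 12 residual degrees of freedom, Benjamini-Hochberg over all probes). Exact permutation of 3 against 3 arrays gives no p below 0.1. A probe at background on all arrays of a group has only a lower bound for its fold, the bright group's mean against the mean over the dim group's arrays of the higher of the lowest signal well above background and the probe's own signal. Precision is limited by the number of arrays and by how far signals exceed background. The code was tested on simulated data.

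Deviations from the group means of same-numbered HS22 and HS15 arrays correlated with r = 0.15, 0.388 and 0.291 over 27573 probes (−0.384 to 0.094 for other pairs). The replicate numbers, which the labels give, were therefore tried as a block over all 18 arrays, although these correlations cover only HS22 and HS15. For replicate 1 the correlation lay near the highest of the other pairs, and whether the pattern comes from shared processing was not tested. Other alternatives were the 75th percentile shift, normexp with an offset of 50, the authors' processed values, slide or scan day as a block, the 6 HS arrays alone, the arrays of the second scan day alone, only probes well above background, 1 probe per target, the methods' t-test, an adjusted p under 0.1 and omission of each array.

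Genes are named through the Arabidopsis loci in the study's tables, of which the copies used here are incomplete. None of the 40632 array targets was found in the reference table, so no sequence is given. Named genes are, in each list, up to 4 called probes with the largest fold, 1 per locus, then the called probes furthest from 0 on either side (10 annotated ones and 3 of any kind a side), then FLC, AGL79, SUF4, GI, LFY and PKL, and the probes with the smallest p for the difference between the lines. Other genes named beside list counts, or with several probes, were chosen after their values were seen. The members and lists were chosen with earlier results of these data known. The fold changes and p-values in the study's tables were not used. Figures were drawn with matplotlib 3.10.9 in Python 3.11.15. The random slide block used statmod 1.5.0.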

Additional observations from a re-analysis of the deposited data

Results flagged for a closer look

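The response to 22 °C differed between the lines for 15 probes by limma's test of that difference, given here as the response in HS less the response in HT on the log2 scale. Among annotated loci it was 0.92 for AT1G80530 (a major facilitator transporter), 1.34 for AT5G59530 (a 2-oxoglutarate-dependent oxygenase family member) and −1.12 for AT5G47920, whose function is not known. AT5G59530 fell in HT by 1.76 and differed by −0.42 in HS, and AT5G47920 rose in HT by 1.25 and differed by 0.13 in HS. Probes without a gene name that were well above background on all arrays at 15 and 22 °C were A_46_P232754 with 1.48, A_46_P285988 with −1.06, A_46_P227569 with 1.73 and A_46_P151314 with −1.62. A_46_P092606 had 4.04 and was at background only in HT22.

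The others were at background in 1 line or in nearly every group. A_46_P329330 (−1.11), A_46_P160434 (−1.35) and A_46_P382438 (4.0) were well above background on no HT array at these temperatures, and A_46_P249164 (−1.19), A_46_P306050 (1.87), A_46_P026796 (2.55) and A_46_P330435 (0.71) on no HS array. For A_46_P330435 no array of either line at 15 or 22 °C was well above background. With each of the 12 arrays left out in turn, only A_46_P249164, A_46_P306050, A_46_P329330, A_46_P232754 and A_46_P285988 were called every time. Of these only A_46_P285988 was called both with the 75th percentile shift (adjusted p = 0.0474) and with normexp (0.0125). A_46_P306050, well above background on only 1 HT15 array, fell to 0.17 with normexp (adjusted p = 0.934).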

How the results depend on the processing

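Counts are given as probes called higher and lower at 22 °C in HS, against 1322 and 1402. They were 2012 and 2133 with the replicate block, 276 and 319 with only the 6 HS arrays at 15 and 22 °C, 2128 and 2410 with scan day as a block, and 613 and 328 with only the arrays of the second scan day. The 2 settings on scan day were chosen after seeing the data. Of the 2724 calls the replicate block kept 99.1%, the scan day block 83.7%, the 75th percentile shift 76.4%, normexp 85.8%, a random slide block 84.3%, the 6 arrays alone 19.5% and the second scan day alone 12.8%, none with the opposite sign. Omission of 1 array gave 707 to 1321 higher and 773 to 1165 lower probes. At an adjusted p under 0.1, 2041 were higher. The methods' t-test called 2973 and 3054 at an unadjusted p under 0.05, 34 and 33 after Benjamini-Hochberg adjustment at 0.05, and 352 and 386 at 0.1.

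With a fold of 2 as well (315 and 339), normexp gave 163 and 175, the 6 HS arrays 131 and 169, the second scan day 170 lower, and the adjusted t-test 19 and 19 at 0.05 and 95 and 132 at 0.1. Omissions gave 232 to 409 and 255 to 338. The difference between the lines (15 probes) gave 2 with the 75th percentile shift and 2 with the authors' values, 54 with slide as a block, 24 with scan day as a block, 59 at an adjusted p under 0.1 and 6 to 200 with 1 array left out. With the replicate block it gave 22. List members (45 higher, 37 lower) gave 14 and 8 with the 6 HS arrays, 16 and 7 with the second scan day, and 25 to 39 and 20 to 29 with 1 array left out.

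Of 64 named probes that were called, 42 were called under every omission and 54 under all 6 alternatives on all arrays. In the fit of only the 6 HS arrays 35 of the 64 were not called, and in that of only the second scan day 40 were not. With the 6 HS arrays the probes lost include HSP17.6II, HSP23.6-MITO, RVE8, FAF2, PAL1, MIPS1 and FLC. HSP70, HSP17.6A, GI, CIR1 and BBX32 kept their calls there. Directions changed for uncalled values only: LFY was −0.54 with the second scan day, A_46_P249164 was 0.15 with the 75th percentile shift and the authors' values and 0.05 with normexp, and A_46_P306050 was 0.21 with the 75th percentile shift and the authors' values. The cause was not tested. The 75th percentile shift moved the median of all probes to 0.08, and the direction of no list's median changed with the scaling. Signal over background limits what can be said of the 11644 probes well above background on no HS22 or HS15 array, of which 47 were called.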
